A study of Caenorhabditis elegans with 12 samples.

Results

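MicroRNA ratios of a Caenorhabditis elegans strain that carries a human alpha-synuclein transgene were set against those of 2 strains that each lost a gene, cat-1 or pdr-1. All 3 strains have been used as models of Parkinson's disease, and the comparison asks where the transgenic model differs from the loss-of-function models. Every array paired the RNA of 1 strain with RNA of the wild-type strain N2, so each value is a strain over N2 and the comparison is a difference between 2 such ratios. The members were the 4 alpha-synuclein arrays and the 7 distinct mutant arrays, 11 of 12 arrays deposited, because the scanner file of cat-1 replicate 4 repeats that of replicate 3 value for value and adds no sample.

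MicroRNAs are short RNAs that guide a repressor complex to messenger RNAs, mainly through the seed, the bases next to their 5′ end. The let-7 family of the worm (let-7, miR-241, miR-84 and miR-48) shares a seed and belongs to the heterochronic pathway, which times larval development. miR-48, miR-84 and miR-241 act together at an earlier larval transition by repressing hbl-1, and let-7 acts at the passage from the last larval stage to the adult by repressing lin-41. Alpha-synuclein is the main protein of Lewy bodies, cat-1 encodes the transporter that fills synaptic vesicles with monoamines such as dopamine, and pdr-1 is the worm gene for parkin, a ubiquitin ligase.

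The transgenic worms expressed the A53T form of human alpha-synuclein, found in familial disease, and were built by Lakso and colleagues. The sources used here do not give the transgene's promoter. The cat-1 group was strain CB1111 with allele e1111 and the pdr-1 group strain VC1024 with allele gk448, 1 allele for each gene. All worms, N2 included, were synchronized at larval stage 4, grown at 20 °C on OP50 bacteria and used whole, and small RNA under 200 nt was taken from 4 independent populations per strain. In whole worms, fewer cells of a type and less of a microRNA per cell cannot be told apart.

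The arrays held 114 C. elegans probes with 3 spots each, and precision is limited by how many arrays measured a probe. A ratio, which needs a signal in both channels, was obtained for 69 probes on at least 1 array and for 13 to 54 probes per array. The alpha-synuclein arrays gave 50, 53, 45 and 13 ratios, the cat-1 arrays 36, 54 and 30, and the pdr-1 arrays 14, 22, 54 and 32. The mean number of ratios was 40.3 for alpha-synuclein and 34.6 for the mutants, a difference of 5.68 that was not larger than the spread between arrays (two-sided exact permutation test, p = 0.594).

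Several arrays stood apart, and their values touch the results that follow. The 4 alpha-synuclein arrays were noisier than the 7 mutant arrays. Their median SD between spots of a probe was 0.373 to 0.545 on the log2 scale, against 0.135 to 0.335, with no overlap (two-sided exact permutation test, p = 0.00303, the smallest that 330 splits allow, and 0.00909 after adjustment over 6 array measures). The SD of the normalized ratios within an array was likewise 0.746 to 1.27 for alpha-synuclein against 0.254 to 0.724 for the mutants (exact permutation test, p = 0.00303, adjusted 0.00909). The part of this wider spread in the differences between groups was not tested. On alpha-synuclein replicate 3 the raw strain signal was 23.8 times the N2 signal at the median, and 10 probes held a strain signal only. The cat-1 arrays held a signal on 15 to 18 of 1059 blank spots, against 0 to 3 on the others. pdr-1 replicates 1 and 4 correlated at -0.593 with each other across 14 microRNAs. With pdr-1 replicates 2 and 3, replicate 1 correlated at 0.02 and -0.02, and replicate 4 at 0.04 and 0.42. With cat-1 replicates 1 to 3, replicate 1 correlated at -0.23, 0.64 and 0.68, and replicate 4 at -0.10, 0.06 and 0.52. The direction of one of them is thus not settled although both are labelled alike, and both calls are also given with each turned.

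**Figure D1:**
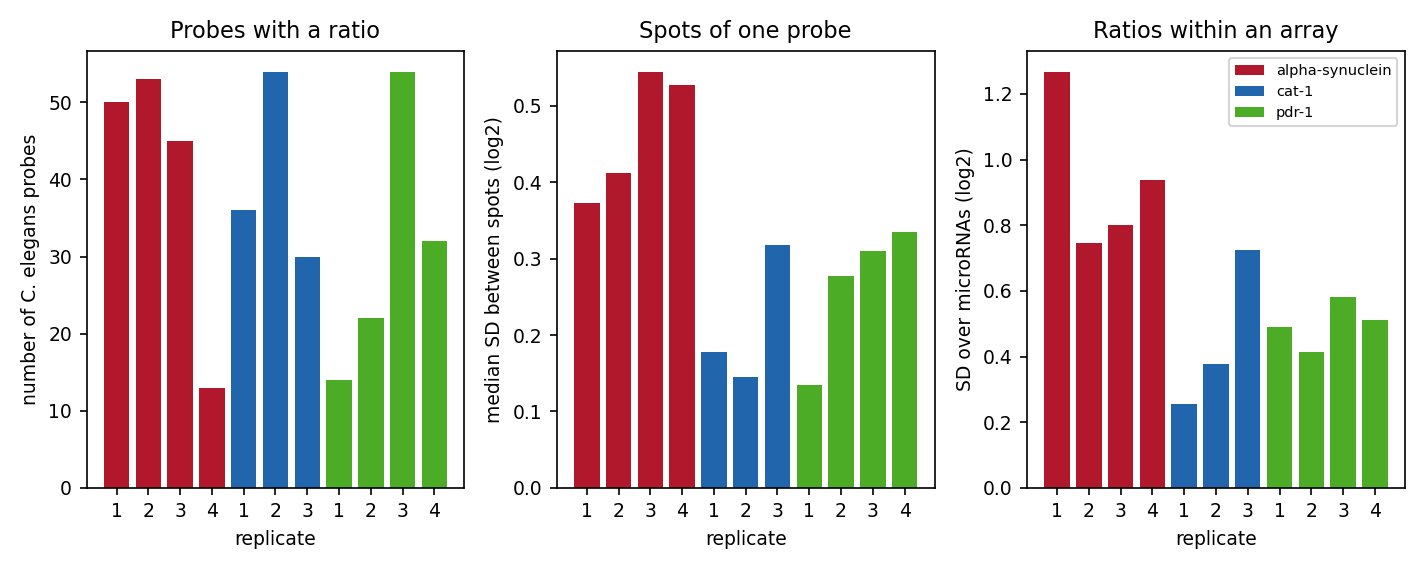
Number of C. elegans probes with a ratio (left), median SD between spots of a probe in log2 units (middle) and SD of the normalized log2 ratios over microRNAs within an array (right), with 1 bar per array, numbered by replicate. The alpha-synuclein bars (red) lie at 0.373 to 0.545 in the middle panel and 0.746 to 1.27 in the right panel, above all cat-1 (blue) and pdr-1 (green) bars, while the counts of ratios overlap.

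Of 49 microRNAs that could be tested, 2 passed the threshold, let-7 and miR-241, both of the let-7 family. Their strain-to-N2 ratios were lower in the transgenic strain than in the mutants, and none was called higher. The 2 calls are 4.08% of the tested microRNAs and the share of calls in the other direction is 0% (limma on normalized log2 ratios, Benjamini-Hochberg adjustment over the 49 at 0.05). At an unadjusted p under 0.05 there were 4, or 8.16%, with miR-84 and miR-70 added. The ratio was 3.25-fold lower for let-7 and 3.31-fold lower for miR-241 than in the mutants. For miR-241 the mean log2 ratio was -0.63 in the transgenic strain and 1.10 in the mutants. Part of that difference lay in the normalized N2 level, as described below. A negative sign means a lower strain-to-N2 ratio. This direction is likely, since N2 is listed first and the strain second for every array, but no dye swap checks it. Any dye bias of a probe that stays constant from array to array drops out of the difference. Over all 49 the median difference was 0.06 on the log2 scale, with 23 differences below 0 and 26 above, from -1.73 to 1.10.

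**Figure D2:**
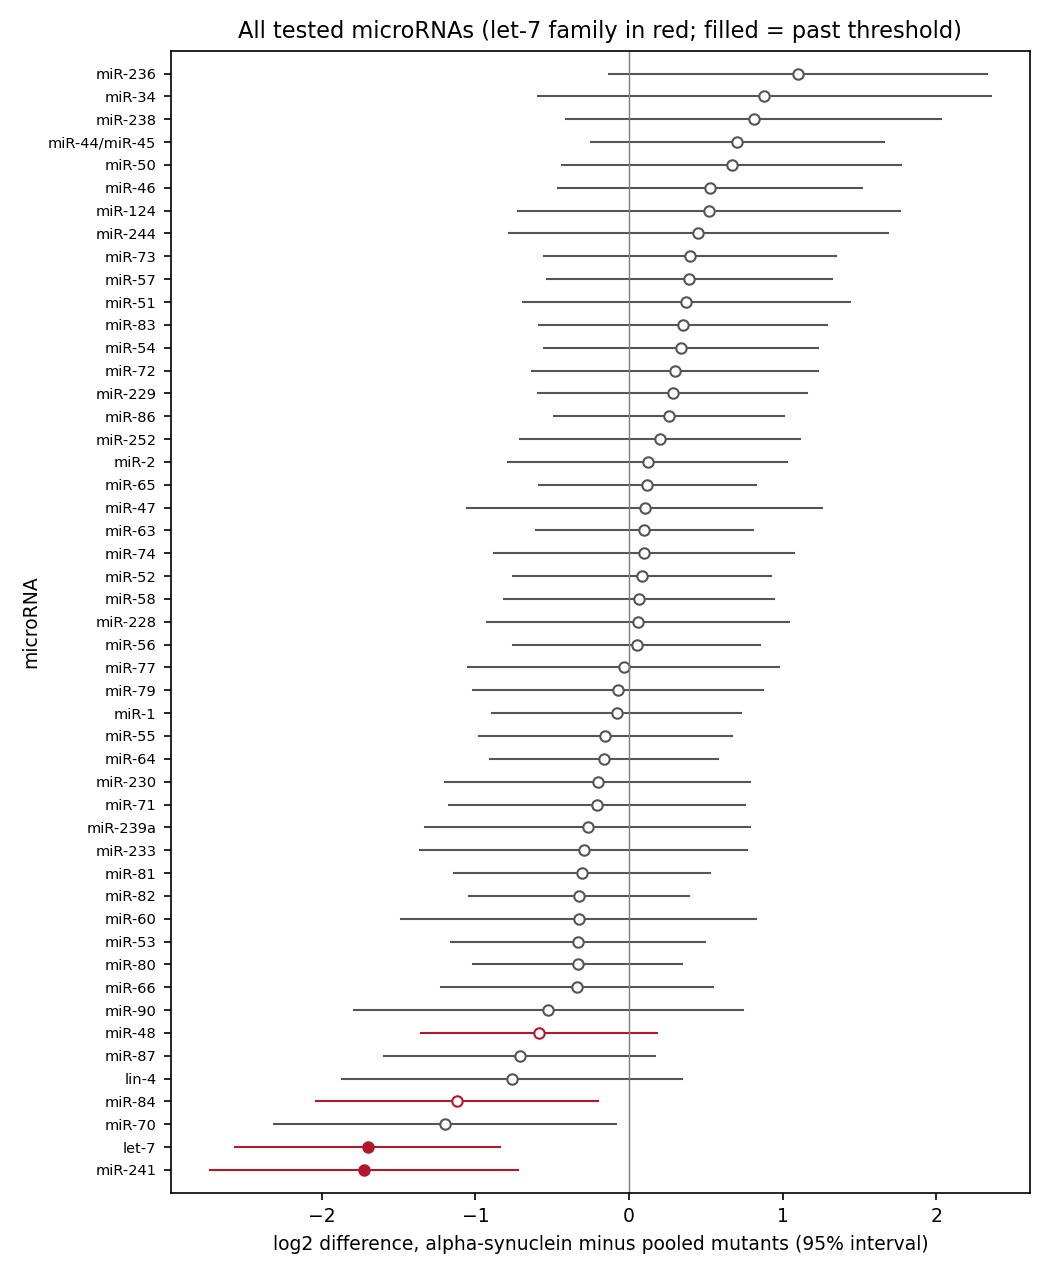
Difference in log2 ratio, alpha-synuclein minus pooled mutants, for each of the 49 tested microRNAs (points) with its 95% interval (lines), ordered by size. The let-7 family is red; filled points, let-7 at -1.70 and miR-241 at -1.73, passed the threshold and their intervals lie furthest below 0.

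let-7 had normalized log2 ratios of -1.87, -3.00 and -0.52 on alpha-synuclein replicates 1 to 3 and no signal on replicate 4. The cat-1 arrays gave -0.33, 0.05 and -0.24, and the pdr-1 arrays 0.22, 0.14, -0.47 and -0.04. With this loess normalization, all 3 transgenic values lay below all 7 mutant values, although replicate 3 lay close to the lowest of them. With median centring instead, alpha-synuclein replicate 3 was at -0.48 and pdr-1 replicate 3 at -0.69, so the groups overlapped. The loess-normalized means were -1.80 (SD 1.24, n = 3) and -0.10 (SD 0.25, n = 7). The difference was -1.70 ± 0.42 (SE; 95% interval -2.57 to -0.84; limma adjusted p = 0.018). Both groups share 1 spread, while the residual SD was 0.81 for alpha-synuclein and 0.45 for the mutants. This interval and p may thus be too narrow and too low. The test without moderation of the spread gave an adjusted p of 0.274. An exact permutation test over these 10 arrays gave p = 0.00833, the smallest of 120 splits, and 0.408 after adjustment over the 49 microRNAs. A p of that smallest size could not by itself fall under 0.05 after adjustment, so the adjusted value does not decide.

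The signals behind these ratios differed in kind between transgenic arrays. On alpha-synuclein replicate 1 the mean let-7 signal was 1321 in the N2 channel and 311 in the strain channel, in scanner units of 1000. Replicate 2 held 2236 in N2 and 854.5 in the strain. Both thus showed less let-7 signal in the strain channel before any normalization. On replicate 3 the order was opposite, 130 in N2 and 2458 in the strain, and its ratio is below 0 only relative to the other probes of that array. On the mutant arrays the strain signal exceeded the N2 signal on 6 of 7, for example 2604 against 1733.5 on cat-1 replicate 1 and 3893.67 against 844 on pdr-1 replicate 2, or on 5 of 7 if either pdr-1 replicate 1 or 4 is turned. As labelled, the median raw log2 ratio over all C. elegans spots was also above 0 on every mutant array, from 0.17 to 2.49. The count thus does not single out let-7. That median was -0.18, 1.75 and 4.57 on alpha-synuclein replicates 1 to 3. By single spots, 7 of 7 transgenic let-7 spots had a raw ratio below the median of their array, against 9 of 16 mutant spots. The highest of these 7, on alpha-synuclein replicate 3, was at -0.01 relative to that median (log2), so practically at it. The spots came from 3 transgenic and 7 mutant arrays. Spots of the same array are not independent, so these counts are a description and no test.

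miR-241 was measured on fewer arrays. The alpha-synuclein replicates 1 to 3 gave -0.88, -0.70 and -0.29. cat-1 replicates 2 and 3 gave -0.02 and 2.14, and pdr-1 replicates 3 and 4 gave 0.58 and 1.71. With median centring, alpha-synuclein replicate 3 was at 0.08 and cat-1 replicate 2 at 0.01, so the groups overlapped. As labelled and with loess, they did not overlap, and the mutants were the more spread: -0.63 (SD 0.30, n = 3) against 1.10 (SD 0.99, n = 4). The difference was -1.73 ± 0.49 (95% interval -2.73 to -0.73; limma adjusted p = 0.0366), with an exact permutation p of 0.0571 over 7 arrays. Each cat-1 value rests on 1 spot. With pdr-1 replicate 4 turned, its value of -1.71 lies below all transgenic values, so the groups overlap, and the limma difference was -0.87 (adjusted p = 0.713). That of let-7 was then -1.71 (adjusted p = 0.049), with no overlap. With pdr-1 replicate 1 turned instead, let-7 differed by -1.64 (adjusted p = 0.0244), and miR-241, which has no ratio on that array, by -1.73 (adjusted p = 0.0339).

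The other members of the family did not pass the threshold. miR-84 gave -2.73, -0.28 and 0.06 on the transgenic arrays, whereas the mutants lay between -0.20 and 0.33, with a mean of 0.14 (SD 0.19, n = 7). Its difference was -1.12 ± 0.45 (limma adjusted p = 0.301), and without alpha-synuclein replicate 1, its lowest array, it was -0.25. miR-48 was the only member with a ratio on all 11 arrays, at -0.99, -0.41, -0.30 and -2.18 on the transgenic ones. The mutant arrays gave -0.17, 0.01 and -0.17 (cat-1) and -0.07, -1.25, -0.56 and -0.47 (pdr-1), so the groups overlapped. Its difference was -0.59 ± 0.38 (95% interval -1.35 to 0.18; adjusted p = 0.858).

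As a group, the 4 tested family members of 5 listed had a median difference of -1.41 (-1.73 to -0.59), against 0.06 over all 49, with 2 called. All 4 lay below 0. Among the other settings, miR-48 was at 0.26 when arrays were centred on dye-control spots. let-7 was at 0.033 in the authors' deposited table with its alpha-synuclein replicate 2 column turned. By single values, 12 of 13 transgenic values of the family were below 0 (92.3%), against 13 of 25 mutant values (52%). Over all tested probes these shares were 46.6% and 48.4%. The family median and shares include the 2 called microRNAs, and the family was listed with earlier results of these data known. Values from the same array are not independent, so these figures are a description and no test. The mean over the family was -1.62, -1.09 and -0.26 on alpha-synuclein replicates 1 to 3, and between -0.27 and 0.52 on the mutant arrays. Replicate 3 was thus inside the mutant range for the family as a whole. miR-48 and miR-241, whose genes lie within 10000 bases of each other, had differences of -0.59 and -1.73.

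**Figure D3:**
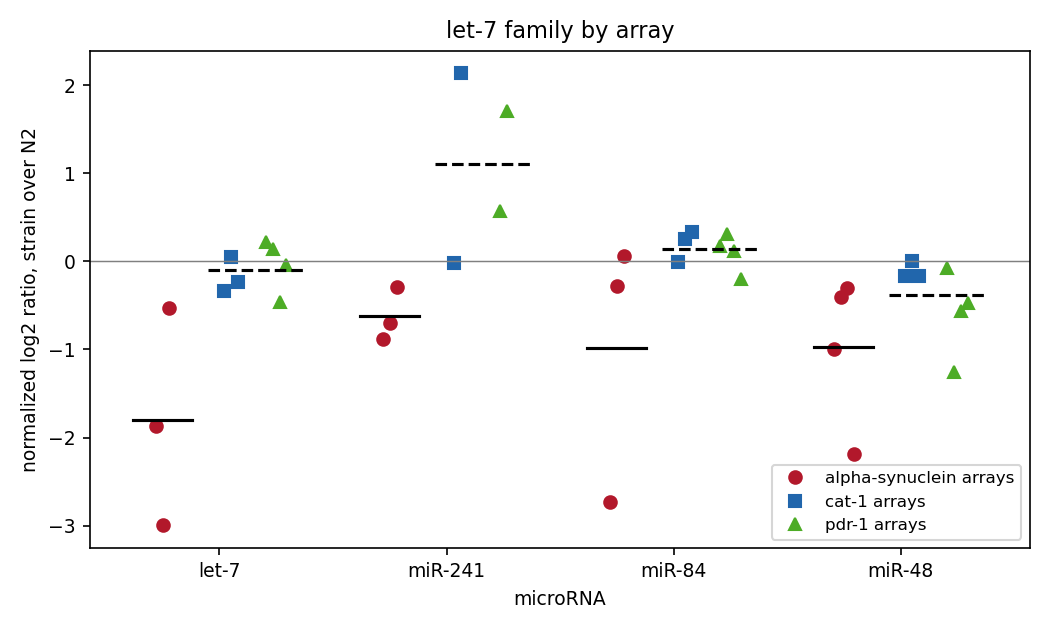
Normalized log2 ratio of strain over N2 for the 4 measured let-7 family microRNAs, with 1 point per array (red circles alpha-synuclein, blue squares cat-1, green triangles pdr-1) and the mean of the transgenic arrays (solid line) and of the pooled mutants (dashed line). As labelled and with loess, the groups do not overlap for let-7 and miR-241 and overlap for miR-84 and miR-48. With median centring, let-7 and miR-241 overlap too. Under dye-control centring, miR-48 alone turned above 0 (0.26) as a difference.

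A ratio can differ through the strain channel or the N2 channel. The mean log2 signal of both channels was therefore set against 7 microRNAs measured on all 11 arrays (miR-1, miR-48, miR-63, miR-64, miR-65, miR-80 and miR-82). The loess-normalized ratio was then split equally, added to this mean for the strain channel and taken from it for the N2 channel. This is a description with no test. The loess fit and the mean use both channels, so neither level is the signal of 1 channel alone. For let-7 the strain channel was lower by 1.49 on the transgenic arrays (-1.19 against 0.30 in the mutants, log2), and the N2 channel differed by 0.22. By this split, the larger part of the let-7 difference lay in channel B, read here as the strain. Its levels were -2.09, -1.47 and -0.01 on alpha-synuclein replicates 1 to 3 and ran from -1.17 to 1.45 on the mutant arrays, so replicate 3 lay inside the mutant range. Leaving out 1 array at a time gave -2.08 to -1.03 for the strain part and -0.24 to 0.63 for the N2 part. For miR-241 both channels contributed, with -0.77 in the strain channel and 0.96 in the N2 channel. The lowest mutant N2 level was -2.18, on cat-1 replicate 3, and without that array the N2 part was 0.41. Without alpha-synuclein replicate 1 the strain part was -0.01 and the N2 part 1.59. miR-70 differed by 1.01 in the N2 channel and -0.19 in the strain channel. miR-48 is itself one of the 7, and its parts were 0.70 in the N2 channel and 0.11 in the strain channel. Set against the 6 others alone, these were 0.77 and 0.18. The N2 channel carries no RNA of the strains, but its level here also depends on the strain signals through the loess fit and the mean. miR-84 differed by -0.74 in the strain channel and 0.38 in the N2 channel.

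**Figure D4:**
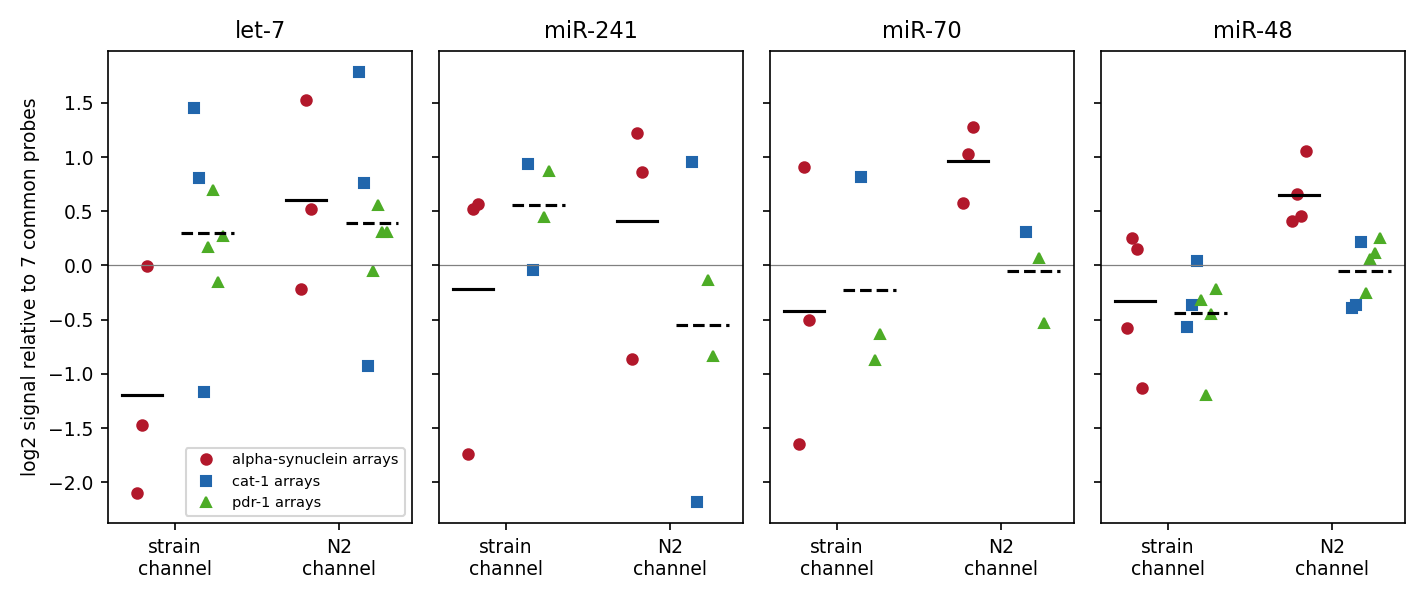
Level of each channel (log2) by array for let-7, miR-241, miR-70 and miR-48. Levels split the loess-normalized ratio equally around the mean of both channels, which is relative to 7 microRNAs measured on all arrays. Lines are group means, solid for alpha-synuclein and dashed for pooled mutants. For let-7 the strain channel means lie at -1.19 and 0.30 while the N2 means lie close together; for miR-70 and for miR-48, itself one of the 7, it is the N2 means that lie apart.

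The 2 mutants were also set against the transgenic strain singly, which shares the 4 alpha-synuclein arrays between both comparisons. Against cat-1 alone let-7 differed by -1.62 ± 0.50 (adjusted p = 0.130) and against pdr-1 alone by -1.76 ± 0.48 (adjusted p = 0.0971). miR-241 differed by -1.68 ± 0.59 (adjusted p = 0.185) and -1.77 ± 0.64 (adjusted p = 0.323). miR-84 differed by -1.17 and -1.08, and miR-48 by -0.86 and -0.38. The sizes for let-7 and miR-241 were close in both, but none of 36 and none of 37 tested microRNAs passed the threshold by limma (3 and 2 at an unadjusted p under 0.05, 8.33% and 5.41%).

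cat-1 and pdr-1 were not shown to differ from each other in any of 31 microRNAs tested between them (0%). miR-58, a member of the bantam family, was the 1 microRNA at an unadjusted p under 0.05 (3.23%), at 0.84 in cat-1 and -0.11 in pdr-1, a difference of 0.95 ± 0.42 (limma adjusted p = 0.762). For let-7 the difference cat-1 minus pdr-1 was -0.14 ± 0.47, and for miR-241 it was -0.08 ± 0.67. These errors leave room for differences near the size of 1 on the log2 scale for let-7 and above 1 for miR-241.

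Single arrays and the choice of scaling decided whether the calls were made. let-7 passed in 29 of 42 settings, the reported one included, and miR-241 in 20 of 42. miR-241 was below 0 in all 42 and let-7 in 41, the exception being the authors' deposited table with its alpha-synuclein replicate 2 column turned (0.033). As deposited, that column correlated at 0.721 with its scanner ratios. Without alpha-synuclein replicate 2, let-7 differed by -1.10 (adjusted p = 0.224), and without replicate 3, the array with the weak N2 signal, by -2.34 with 3 microRNAs called. No microRNA passed without alpha-synuclein replicate 1 or without pdr-1 replicate 4 either (let-7 at adjusted p = 0.096 and 0.056). When arrays were left without normalization the median of all 49 differences moved to 0.33, and let-7 lay 1.39 below it. With dye-control centring that median was 0.81 and let-7 lay 1.34 below it. Neither setting gave a call. With the authors' deposited table no microRNA passed, and let-7 differed by -1.46 (adjusted p = 0.0577).

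**Figure D5:**
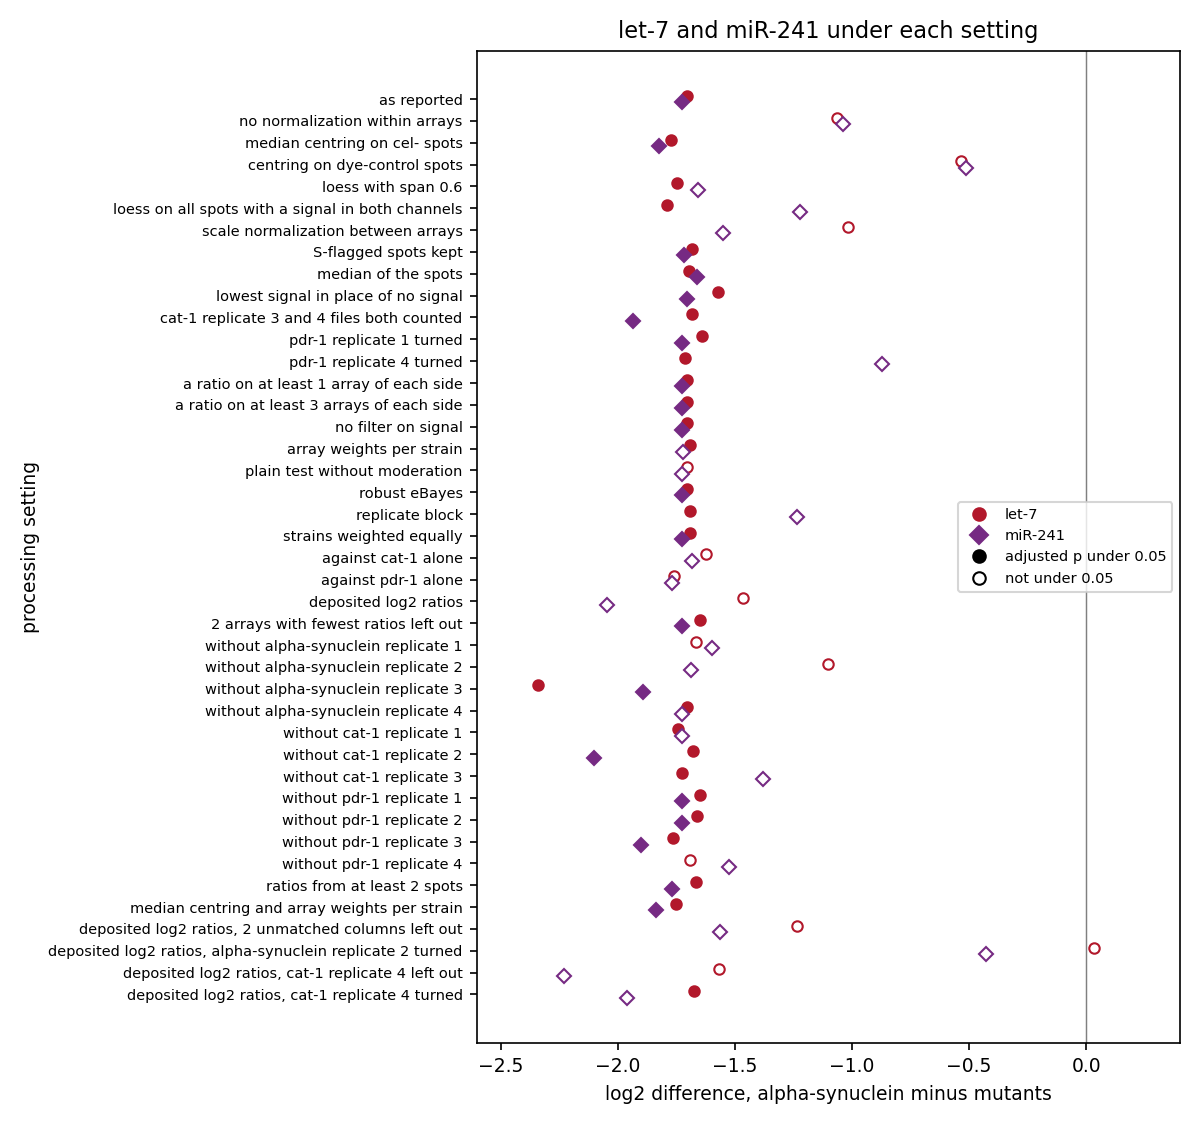
Difference in log2 ratio, alpha-synuclein minus mutants, of let-7 (circles) and miR-241 (diamonds) under each of 42 processing settings; filled symbols have an adjusted p under 0.05. Points run from -2.34 to 0.033 for let-7, with 1 of 42 above 0, and from -2.23 to -0.43 for miR-241, and 13 settings leave let-7 and 22 leave miR-241 unfilled.

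Of the columns of the authors' deposited table, alpha-synuclein replicate 2 (correlation 0.721 with its scanner ratios) and cat-1 replicate 4 do not match a scanner file. In the authors' deposited table let-7 stood at -1.91, -2.25 and -0.57 on the transgenic arrays. Its cat-1 values in the authors' deposited table were -0.28, 0.12, -0.21 and -0.84, the last from a replicate 4 column that differs from the scanner file of that name. That column lies below alpha-synuclein replicate 3, so the groups overlap for let-7 in the authors' deposited table, and they do not if the column is left out or turned. For miR-241 the authors' deposited table gave -0.84, -2.42 and -0.01 against 0.08 to 2.26 in the mutants, without overlap. They overlap if the alpha-synuclein replicate 2 column of the authors' deposited table, which holds the -2.42, or its cat-1 replicate 4 column is turned. With both columns left out, let-7 differed by -1.23 (limma adjusted p = 0.253) and miR-241 by -1.56 (adjusted p = 0.279) in the authors' deposited table, with no overlap for either.

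The next microRNA by p-value was miR-70, at -2.22, -0.13 and -1.78 in the transgenic strain and 0.50, -0.94 and -0.10 in 3 mutant arrays. The groups overlapped, and the difference was -1.20 ± 0.54 (limma adjusted p = 0.434). In the authors' deposited table its transgenic values were -2.67, -1.64 and -1.44 against -0.86 to 0.54 in the mutants, without overlap, and the difference was -1.96 (limma adjusted p = 0.0577). The -1.64 is from the unmatched replicate 2 column, and the groups overlap if that column of the authors' deposited table is turned. With both unmatched columns left out, miR-70 differed by -1.97 (adjusted p = 0.184) in the authors' deposited table. Loess normalization moved replicate 2 most. Its 3 spots lay 0.91 to 1.07 below the array median, and the normalized value was -0.13.

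On the positive side the largest difference was that of miR-236, a relative of the vertebrate miR-200 family. It had 2.03 and 0.91 on alpha-synuclein replicates 1 and 2, and 0.16 and 0.58 on cat-1 replicate 2 and pdr-1 replicate 3. The groups did not overlap, but 2 arrays against 2 cannot give an exact p below 0.333, and the difference of 1.10 ± 0.60 had an adjusted p of 0.758. miR-83, a relative of vertebrate miR-29, differed by 0.35 ± 0.46. Loess-normalized ratios that did not overlap between the groups were found for 6 of 49 microRNAs (12.2%). let-7 and miR-241 were lower (4.08%) and miR-236, miR-238, miR-46 and miR-50 higher, the last 4 with 2 or 3 transgenic arrays each. With pdr-1 replicate 4 turned, 6 of 49 again did not overlap, 2 of them lower, but miR-241 was not among them. With median centring, both let-7 and miR-241 overlapped.

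Of the microRNAs that follow by p-value, miR-87 differed by -0.71 ± 0.43, with -1.35, -0.51 and 0.31 on the transgenic arrays. A probe named for both miR-44 and miR-45 differed by 0.70 ± 0.46, with 1.44 and -0.05. miR-50 differed by 0.67 ± 0.54, with 0.34, 0.40 and 1.36. The transgenic arrays disagreed more than the mutant arrays did for each of these probes. The SDs were 0.83 against 0.38 (miR-87), 1.05 against 0.17 (miR-44 and miR-45) and 0.57 against 0.37 (miR-50, 3 arrays against 2). Adjusted p-values by limma were 0.858 to 0.873 for these.

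lin-4, the founding microRNA, which represses lin-14 early in larval life, served with let-7 as a marker of larval timing. Its ratios were 0.78, 0.00 and -2.31 on alpha-synuclein replicates 1 to 3, -0.13 and 0.05 on 2 cat-1 arrays and 0.52 and 0.56 on 2 pdr-1 arrays. The low value came from replicate 3, the array on which let-7 was least low. The difference was -0.76 ± 0.54 (limma adjusted p = 0.873), but it was 0.14 without alpha-synuclein replicate 3 and 0.28 with dye-control centring. Of the 8 probes of the miR-35 family, a marker of embryos, 5 gave any signal, 4 gave any ratio and none could be tested. Whether the strains differed in developmental timing was not tested.

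Among 6 microRNAs linked to stress and lifespan, 4 were tested and none passed (median difference 0.30, from -0.27 to 0.88). miR-34, a microRNA of the response to DNA damage, gave 3.00, 1.06 and -0.82 on the transgenic arrays and 0.27 and 0.13 on 2 pdr-1 arrays, with none on cat-1. These transgenic values covered both sides of the mutants, and the difference was 0.88 ± 0.71. miR-238 gave 0.06 and 0.95 against -0.57 and -0.04, a difference of 0.81 ± 0.59. miR-71, which prolongs adult life, differed by -0.21 ± 0.47, and miR-239a, which shortens it, by -0.27 ± 0.51.

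Tissue markers did not pass either. miR-1, the muscle microRNA, had a ratio on every array and differed by -0.08 ± 0.40 (95% interval -0.89 to 0.73), with transgenic values of -0.95, -0.95, -0.19 and 1.45. miR-124, expressed in sensory neurons, differed by 0.52 ± 0.60 and was measured on 2 arrays of each side. miR-228, a glial microRNA, differed by 0.06 ± 0.48. lsy-6, which acts in a single taste neuron, gave no signal, so a change in that neuron could not be read here.

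The larger seed families showed no call. The 6 members of the miR-51 family, related to vertebrate miR-100, had a median difference of 0.07 (-0.33 to 0.37). The 4 members of the miR-58 family, the worm bantam family, had a median of -0.32 (-0.33 to 0.06), and the 5 of the miR-63 family 0.10 (-0.34 to 0.28). The 3 of the miR-72 family lay between 0.10 and 0.40. Standard errors of the 49 differences ran from 0.33 (miR-80) to 0.71 (miR-34). Over all tested microRNAs the median was 0.06, and no member of these 4 families reached an unadjusted p under 0.05.

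Neighbouring genes gave a further description of the same differences. miR-73 and miR-74 were at 0.40 and 0.10, miR-81 and miR-82 at -0.30 and -0.33, and miR-54, miR-55 and miR-56 at 0.34, -0.15 and 0.05. miR-64, miR-65, miR-66 and miR-229 were at -0.16, 0.12, -0.34 and 0.28. The 95% interval of each of these differences included 0, so no order among them can be read.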

How the data were processed

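Per the labels' protocols, small RNA was isolated with the mirVana kit and labelled with the NCode system, with N2 RNA in the dye named Alexa Fluor 3 and strain RNA in Alexa Fluor 5 on every array. The deposited scanner files hold a signal intensity and a flag letter per channel for 4608 spots per array, per the file headers. They give no background, and how the intensities were corrected and what the flags mean is not given in the sources used here. Which letter is which dye is not stated; B was read as the strain because the labels list N2 first. The authors' deposited table holds log2 ratios that match log2 of B over A up to a constant per array in 10 of 12 columns. The alpha-synuclein replicate 2 column correlated at 0.721 with its scanner ratios, which goes with the labelled direction. Its scale and centring stay unknown. For cat-1 replicate 4, whose scanner file repeats that of replicate 3, scale, centring and direction stay unknown. The column medians of the authors' deposited table were 0.07, 0.27, -0.06 and 0.40 (alpha-synuclein), -0.03, 0.08, 0.03 and 0.13 (cat-1), and 0.20, 0.05, 0.19 and -0.03 (pdr-1). There were 0 further columns of per-sample values.

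S-flagged spots were not used. Log2 ratios were normalized within arrays by loess on the C. elegans spots (span 0.3, 4 iterations) and averaged over the up to 3 spots of a probe. A microRNA was tested with a signal on at least 4 arrays and a ratio on at least 2 arrays of each side, and a missing ratio was left out, not imputed. Differences were tested, two-sided, by limma 3.58.1 under R 4.3.3 (lmFit, then eBayes; 2 group means, 1 spread over all arrays), with Benjamini-Hochberg adjustment at 0.05. The residual SD was 0.81 for alpha-synuclein and 0.45 for the mutants, so 1 spread is below that of the first and above that of the second. The exact tests permute arrays. The pipeline was tested on simulated data. Of 114 names, 108 matched the WBcel235 gene table, used for names and neighbours.

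The microRNAs named were all past the threshold up to 25, then those with the lowest p-values to make 12, and the tested members of the lists. Members and lists were chosen with earlier results of these data known. miR-46 and miR-50 are named among those that did not overlap, miR-46 after its values were seen. No pairing by replicate number was seen. Over 10 same-number pairs the correlation of deviations ranged from -0.779 to 0.109, on 13 to 47 microRNAs each. Correlations over so few noisy ratios cannot exclude a pairing. Alternatives covered normalization, filters, flags, spread, direction, pooling, the block and each array left out.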

Additional observations from a re-analysis of the deposited data

Results flagged for a closer look

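Differences between the groups drew attention to 2 microRNAs. let-7 differed by -1.70 on the log2 scale between the alpha-synuclein strain and the mutants, and miR-241 by -1.73, each by the test of that difference. The values behind both are given with the let-7 family, and their cause was not tested.

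A signal also appeared in spots outside the comparison. Spots named only by a number, 2817 per array, held a signal on every array, on 0.745% to 4.40% of them, with the highest share on cat-1 replicate 2 (4.40%). The highest share of blank spots with a signal on any array was 1.70%. What these spots carry is not given in the sources used here. In 29 groups of values examined for an array far from the others, none was found, where chance gives about 1 in 20.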

How the results depend on the processing

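The 2 calls became 0 without normalization within arrays, with dye-control centring, with scale normalization between arrays, without moderation of the spread (2 at an unadjusted p under 0.05), against cat-1 alone, against pdr-1 alone and with the deposited log2 ratios (6 at an unadjusted p under 0.05). They became 1, let-7, with loess span 0.6, loess on all spots, pdr-1 replicate 4 turned and array weights per strain. Median centring gave 3, adding miR-84, and median centring with array weights, an alternative chosen after seeing the data, gave 4, adding miR-84 and miR-70. By array values, the groups overlapped for let-7 and for miR-241 with median centring. With the deposited log2 ratios, 4 settings chosen after seeing the data gave 0 calls with the 2 unmatched columns left out, 0 with alpha-synuclein replicate 2 turned (let-7 then at 0.033, the 1 change of direction of a called microRNA), 0 with cat-1 replicate 4 left out and 3 with it turned (let-7, miR-84 and miR-70). Ratios from at least 2 spots, also chosen after seeing the data, gave 3 of 26 tested. Leaving out each array gave 0 to 3 calls: 0 without alpha-synuclein replicate 1, alpha-synuclein replicate 2 or pdr-1 replicate 4, and 1, let-7, without alpha-synuclein replicate 4, cat-1 replicate 1 or cat-1 replicate 3, where miR-241 had an adjusted p of 0.210. let-7 then ranged from -2.34 to -1.10 and miR-241 from -2.10 to -1.38. The strain part of let-7 ranged from -2.08 to -1.03 and its N2 part from -0.24 to 0.63, and those of miR-241 from -1.16 to -0.01 and from 0.41 to 1.59. The difference in ratios per array ranged from 1.43 to 14.8. The count for cat-1 against pdr-1 was 0 in all settings run for it. With the replicate block, let-7 was the 1 call (-1.69, adjusted p = 0.008) and miR-241 was at -1.24 (adjusted p = 0.519), but 0 of 11 arrays correlated best with their own number. Of the 34 other named microRNAs, 4 kept their sign in every setting and 30 moved by over 1.5 times with 1 array left out. miR-84 passed in 5 settings. The exact permutation test called none of 49 after adjustment (2 unadjusted). Its smallest possible p was 0.00303 for a microRNA on all 11 arrays and 0.00833 for let-7. No single microRNA could thus have been called alone after adjustment, and nothing is concluded from that count. Background correction and a slide or scan block were not run, since the files name none. The cause of these changes was not tested. Signal in both channels on few arrays limits most values.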
